A study of Homo sapiens with 2 samples.

Results

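The transcripts of 10 regulators of the G1 to S step of the cell cycle were followed in ACHN cells carrying an shRNA against KIAA1429, a scaffold protein of the complex that writes N6-methyladenosine (m6A) on mRNA. The 10 genes were taken by symbol from the 12014 genes that the deposited files list, and all 10 were present: the D-type cyclins CCND1 and CCND3, the E-type cyclin CCNE2, the cyclin-dependent kinases (CDKs) CDK2, CDK4 and CDK6, the CDK inhibitors CDKN1A and CDKN1B, the retinoblastoma gene RB1 and the transcription factor E2F1. ACHN is an established human line of renal cell carcinoma. One library came from cells infected with lentivirus carrying an shRNA against KIAA1429 (shKIAA1429) and one from cells infected with a control shRNA (shNC). Both were kept under puromycin as stable lines, and each library stands for 1 selected population. The labels call the first a KIAA1429 knockout and the second a negative control, and which of the study's KIAA1429 shRNAs was sequenced is not given in the sources used here. With 1 library per group there was no replicate check, so no p-value or error could be given, and every difference is one between these 2 libraries. The question put to these genes was how the transcripts of the G1 machinery stood in cells whose cell cycle phases the study also measured by flow cytometry. In that separate assay of Caki-1 and ACHN cells, the study reported more cells in G1 and fewer in G2/M after KIAA1429 knockdown.

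A cell passes from G1 into S phase when CDKs inactivate the RB1 protein. D-type cyclins bind CDK4 and CDK6, and E-type cyclins bind CDK2. Both kinds of complex phosphorylate RB1, which then releases E2F factors to switch on genes of DNA replication. CDKN1A (p21) and CDKN1B (p27) bind and restrain CDK2 complexes, and the INK4 inhibitors bind CDK4 and CDK6 directly. CDKN1A is a classic target of the p53 protein, and CCND1 is the cyclin through which growth signals often reach this switch.

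Promoter sequence of RefSeq (GRCh38.p14) was available for 7 of the 10 genes, CCND3, CDK4, CDK6, CDKN1A, CDKN1B, RB1 and E2F1. The 250 bases before each annotated start were searched on both strands for the E2F word in its 4 forms (TTTCCCGC, TTTGGCGC, TTTCGCGC and TTTGCCGC), for the E-box CACGTG that MYC and its partner MAX can bind, and for the GC box GGGCGG of SP1-type factors. Among these 7 genes the E2F word was in the window of E2F1 alone, at 33 and 20 bases before the start, and the E-box was in that of CDK4 alone, at 216, 196 and 101 bases before the start. The stretches below are shown because they hold these words in genes whose transcripts are compared further on, and E2F3 and RBL1 (p107, a relative of RB1) are shown beside E2F1 because they hold the same word. Capitals mark E2F words in E2F1, RBL1 and E2F3, E-boxes in CDK4 and GC boxes in CDKN1A, and each sequence is read 5′ to 3′ on the strand of its gene. The E2F1 stretch is at chr20:33686386-33686433 (minus strand), that of RBL1 at chr20:37095998-37096038 (minus strand), that of E2F3 at chr6:20401811-20401848 (plus strand), that of CDK4 at chr12:57752398-57752534 (minus strand) and that of CDKN1A at chr6:36678600-36678689 (plus strand).
E2F1: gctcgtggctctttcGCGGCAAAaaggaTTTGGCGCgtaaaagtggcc
RBL1: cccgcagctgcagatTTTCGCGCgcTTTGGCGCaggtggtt
E2F3: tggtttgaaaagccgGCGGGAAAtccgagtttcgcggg
CDK4: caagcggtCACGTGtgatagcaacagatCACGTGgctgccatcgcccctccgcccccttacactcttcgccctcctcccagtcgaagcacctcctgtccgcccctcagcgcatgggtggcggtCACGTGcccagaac
CDKN1A: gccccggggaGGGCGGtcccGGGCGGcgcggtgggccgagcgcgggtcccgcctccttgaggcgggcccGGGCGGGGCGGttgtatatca

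The CDKN1A stretch holds 4 GC boxes, of which the last pair overlap by 1 base, and none of the capitalised words overlaps a word of another kind. As background for these matches, the E2F word was found in 2.79% of the 35116 promoter windows of the table, the E-box in 6.34% and the GC box in 42.6%. Among genes that passed the level filter below and had a window, the shares were 5.83%, 11.8% and 77.1%. These were counted per gene, with a match in any of its windows, so they are not directly comparable with the shares per window. GC boxes are not particular to CDKN1A, since the windows of CCND3, CDK4, CDK6, CDKN1B and E2F1 held them too, while RB1 had none. A match describes the letters of the window and does not show that a factor was bound there.

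Expression was measured by paired-end sequencing of poly(A) RNA and deposited as FPKM, fragments scaled to gene length and to the size of the library, so levels of different genes may be compared within a library. Changes are differences of log2(FPKM + 1), shKIAA1429 minus shNC, which makes changes of genes at low levels look smaller than they are. A minimum of 1 FPKM, averaged over both libraries, left 10702 symbols, among them all 10 regulators. The read depth is unknown because FPKM keeps no counts. KIAA1429 itself, listed as VIRMA, was at 3.92 FPKM in the shNC library and at 3.22 FPKM in the shKIAA1429 library, or 82.1% of the control. This log2 change of -0.22 lay inside the central 95% of the 535 genes of similar level, 107 of which were lower, so a reduction of the targeted transcript hardly stands out between these libraries. In separate RT-qPCR and western blot assays, the study reported less KIAA1429 mRNA and protein in its ACHN and Caki-1 knockdown lines. The 13 mitochondrially encoded genes took 42.2% of the summed FPKM with shNC and 34.6% with shKIAA1429, so rescaling the libraries to equal sums raised the median log2 change of all genes from 0.06 to 0.24. Of 11 markers of renal epithelium and renal carcinoma, 10 were listed, from LHX1 at 11.0 FPKM to VIM at 368 FPKM with shNC, and they summed to 1064 FPKM with shNC and 903 FPKM with the KIAA1429 shRNA. CA12 was looked for and was not listed. Of the 11 leukocyte, endothelial and fibroblast markers, CD68, COL1A1 and PDGFRB were the only ones listed, none above 3.87 FPKM in either library.

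Among the 10 regulators, 8 were higher with shKIAA1429 and 2 were lower, and their median log2 change was 0.62. Over all genes kept, 57.3% were higher and the median was 0.06. None of the 10 (0 of 10) passed a log2 change of 1.5 in either direction, against 0.383% of all genes higher and 0.252% lower. One regulator, CCND1, was higher by more than 1, as were 1.61% of all genes, and 0 of the 10 were lower by more than 1, against 0.897% of all genes. Past 0.5, 6 of the 10 were higher (CCND1, CDK2, E2F1, CDKN1A, CDK6 and CCNE2), compared with 9.90% of all genes, and 0 of the 10 were lower, compared with 6.12%. The 10 were chosen with earlier results of these data known. Hand-written lists of the same families kept 18 other genes. Of these, 0 of 3 cyclins, 0 of 5 inhibitors, 1 of 2 relatives of RB1 and 1 of 8 E2F and DP factors were higher by more than 0.5. Lower by more than 0.5 were 2 of these inhibitors and 1 of these E2F and DP factors. When the libraries were rescaled to equal sums, 7 of the 10 were higher by more than 0.5 and 3 by more than 1, while 23.9% and 4.23% of all genes were. This set each sum to 1000000 with 1 FPKM still added, so the addition weighed less and changes at low levels grew as well. With 0.1 FPKM added and no rescaling, 7 were higher by more than 0.5 and 1 by more than 1, against 13.9% and 2.98% of all genes.

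**Figure D1:**
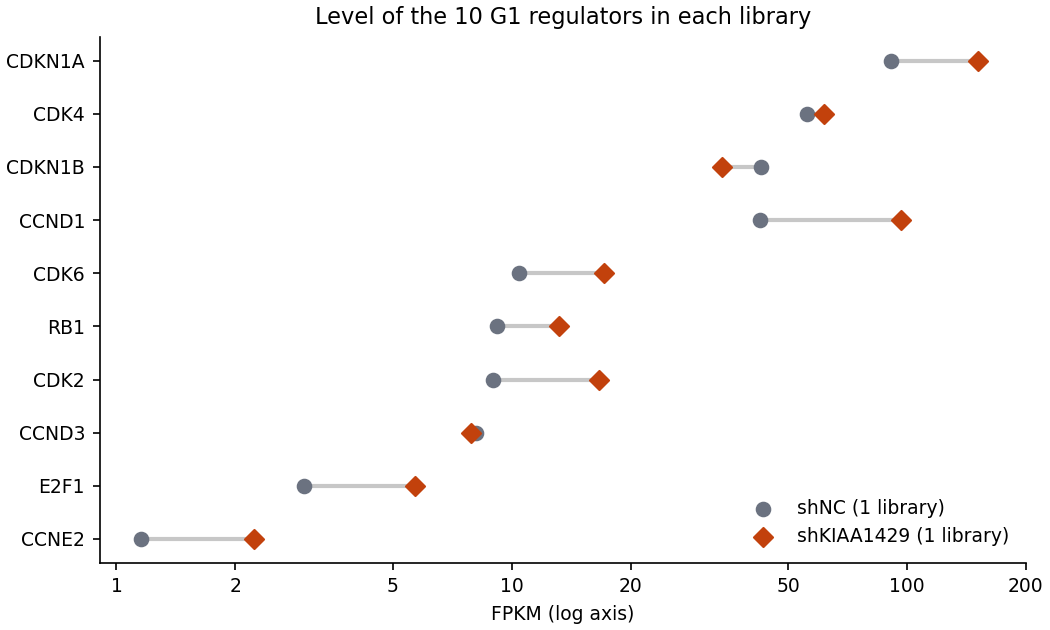
FPKM of the 10 G1 regulators on a log axis, with a circle for the shNC library and a diamond for the shKIAA1429 library. The diamond lies to the right of the circle for 8 genes, farthest for CCND1 (42.4 to 96.6 FPKM), and to the left for CDKN1B and CCND3.

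Of the D-type cyclins, which carry growth signals to CDK4 and CDK6, CCND1 differed and CCND3 did not stand apart. CCND1 (ENSG00000110092.3_2, chromosome 11 of GRCh37 from 69455855 to 69469242, plus strand) was at 42.4 FPKM in the shNC library and at 96.6 FPKM in the shKIAA1429 library, 228% of the control level. The shKIAA1429 library was thus the high one, with a log2 change of 1.17, the largest of the 10. All genes kept were ordered by mean level and cut into 20 groups of similar level. The group of CCND1 was that of the most abundant genes, with means from 48.7 to 14169 FPKM. In it, 2 of the 535 genes had a higher log2 change. CCND3 (ENSG00000112576.12_3, chromosome 6, 41902671 to 42018095, minus strand) was at 8.10 FPKM with shNC and 7.89 FPKM with shKIAA1429, a log2 change of -0.03. That value changed sign to 0.14 when the libraries were rescaled to equal sums. CCND2, the remaining D-type cyclin and not one of the 10, was at 34.3 and 48.3 FPKM, a log2 change of 0.48. The 3 D-type cyclins together summed to 84.8 FPKM with shNC and 153 FPKM with shKIAA1429. Within that sum, a measure free of the scaling between libraries, CCND1 made up 50.0% with shNC and 63.2% with shKIAA1429, while CCND3 made up 9.55% and 5.17%.

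CCNE2 and CCNE1 encode the E-type cyclins that activate CDK2 late in G1. CCNE2 (ENSG00000175305.17_3, chromosome 8, 95891998 to 95908906, minus strand) was the least abundant of the 10, at 1.16 FPKM with shNC and 2.22 FPKM with shKIAA1429. Its level was 192% of the control, but on the scale with 1 FPKM added the log2 change was 0.58. It was 0.89 with 0.1 FPKM added instead, so the size of this change depends on how low values are treated. CCNE1, more abundant in both libraries, was at 3.51 FPKM with shNC and 3.99 FPKM with shKIAA1429, a log2 change of 0.15. CCNE2 accordingly made up 24.8% of the E-type cyclin FPKM with shNC and 35.8% with shKIAA1429. In the list of 6 G1 cyclins, which also held CCNC, 2 were higher by more than 0.5 and 0 were lower, where 9.90% and 6.12% of all genes were, and the median was 0.47. The 2 were CCND1 and CCNE2, already counted among the 10. Of the 3 cyclins outside the 10, 0 were past 0.5 in either direction.

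Among the kinases, CDK2 and CDK6 were higher in the shKIAA1429 library and CDK4 was nearly level. CDK2 (ENSG00000123374.10_2, chromosome 12, 56360553 to 56366568, plus strand), the partner of cyclin E, was at 8.98 FPKM with shNC and 16.7 FPKM with shKIAA1429, a log2 change of 0.82. In its level group (bin) of 535 genes, 18 had a higher change. CDK6 (ENSG00000105810.9_2, chromosome 7, 92234235 to 92465908, minus strand) was at 10.4 FPKM with shNC and 17.1 FPKM with shKIAA1429, a log2 change of 0.67, and 29 genes of the same bin were higher. CDK4 (ENSG00000135446.16_3, chromosome 12, 58141510 to 58149796, minus strand), the most abundant kinase of the 3, was at 55.8 and 61.5 FPKM, a log2 change of 0.14. CDK6 binds the same D-type cyclins as CDK4, and its share of their joint FPKM was 15.7% with shNC and 21.8% with shKIAA1429. CDK3, a little-expressed relative, was at 0.939 FPKM with shNC and 0.660 FPKM with shKIAA1429 and did not reach the minimum mean level. Of the 3 kinases kept, 2 were higher by more than 0.5 (9.90% of all genes) and 0 were lower (6.12%), with a median of 0.67. All 3 belong to the 10, so this count repeats theirs.

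CDK4 is a textbook target of MYC, and its promoter window holds the 3 E-boxes printed above. MYC was at 28.5 FPKM with shNC and 4.53 FPKM with shKIAA1429, and CDK4 was at 110.2% of its control level. Of the 8457 genes kept that had a promoter window, 998 held at least 1 E-box, and their median log2 change was 0.05 against 0.06 for all 8457. Of the genes with an E-box, 9.12% were higher by more than 0.5 and 5.91% were lower by more than 0.5, beside 10.1% and 5.83% of all genes with a window. Whether MYC was bound at these words, or acted on CDK4 or the other genes, was not tested.

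**Figure D2:**
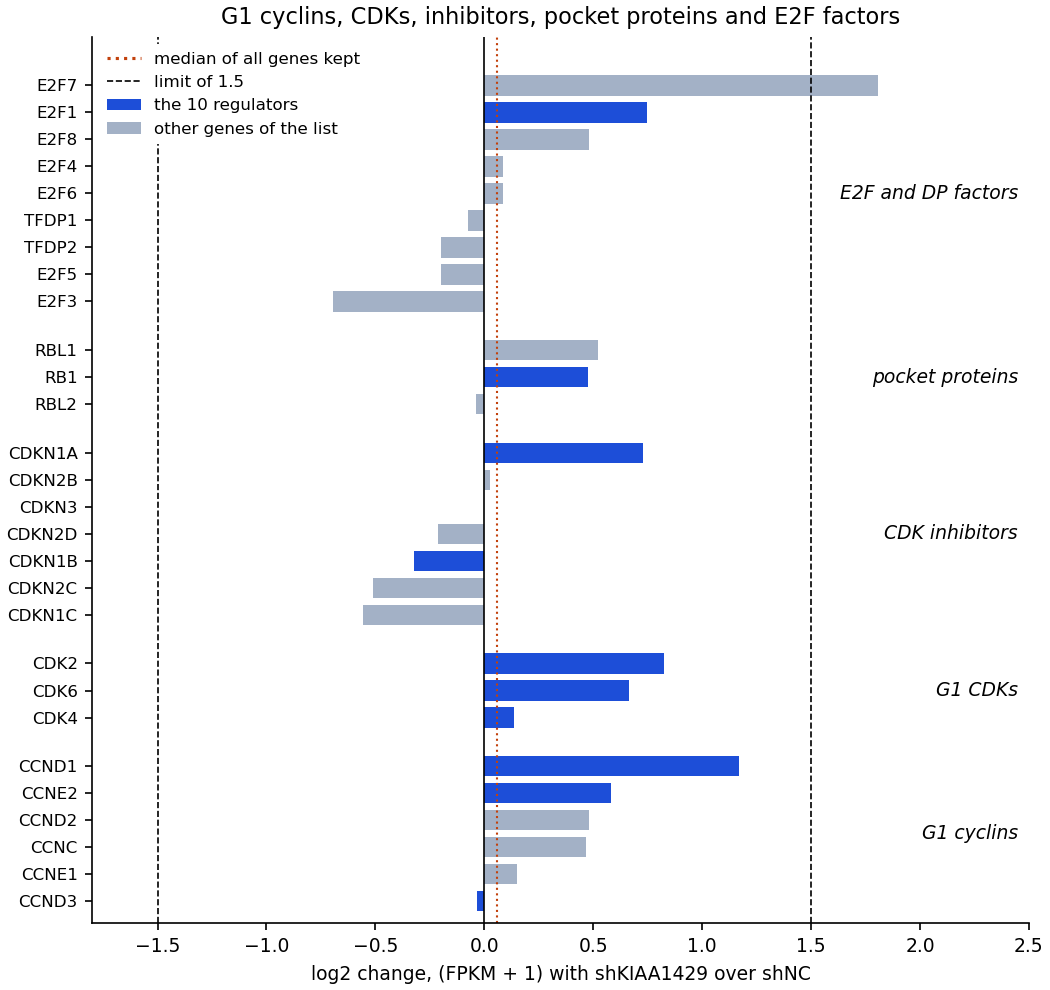
Log2 change of the 28 genes kept from the lists of G1 cyclins, G1 CDKs, CDK inhibitors, pocket proteins, and E2F and DP factors, with the 10 regulators in dark blue, other genes in grey-blue, dashed lines at 1.5 in either direction and a dotted line at the median of all genes (0.06). E2F7 at 1.81 is the bar past the limit, and the inhibitors other than CDKN1A lie near or below 0.

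The CDK inhibitors CDKN1A and CDKN1B, which hold CDK2 complexes in check, differed in direction. CDKN1A (ENSG00000124762.13_2, chromosome 6, 36644237 to 36655116, plus strand) was the most abundant of the 10 in both libraries, at 91.0 FPKM with shNC and 151 FPKM with shKIAA1429, a log2 change of 0.73. In its bin of the most abundant genes, 15 of 535 had a higher change. CDKN1B (ENSG00000111276.10_3, chromosome 12, 12867992 to 12875305, plus strand) was at 42.7 FPKM with shNC and 34.0 FPKM with shKIAA1429, a log2 change of -0.32, and it was lower under every scaling tried. In its bin, 71 of 535 genes were lower still, so this difference does not stand out. In the shNC library CDKN1B and CCND1 were at about the same level, and in the shKIAA1429 library CCND1 was well above it. Together with CDKN1C (p57), which was at 1.602 and 0.767 FPKM, the CIP/KIP inhibitors summed to 135 FPKM with shNC and 186 FPKM with shKIAA1429. The share of CDKN1A in it was 67.3% in the control and 81.3% in the shKIAA1429 library, and that of CDKN1B was 31.5% and 18.2%.

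The INK4 inhibitors, which bind CDK4 and CDK6, were lower or level. CDKN2C (p18) was at 5.07 FPKM with shNC and 3.26 FPKM with shKIAA1429, a log2 change of -0.51. CDKN2D (p19) was at 2.59 and 2.10 FPKM, a change of -0.21, and CDKN2B (p15) at 4.93 and 5.04 FPKM, a change of 0.02. CDKN2A was looked for and was not among the genes listed, so it has no value here. CDKN3, a phosphatase that acts on CDKs, was at 8.34 FPKM in both libraries. Of the 7 inhibitor genes kept, CDKN1A was the one higher by more than 0.5, CDKN1C and CDKN2C were lower by more than 0.5, and the median was -0.21, below the 0.06 of all genes. Over all genes 9.90% were higher and 6.12% lower by that much, so 1 of 7 higher is near the background. Without CDKN1A and CDKN1B, the other 5 also had a median of -0.21.

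RB1 and its relatives, the pocket proteins, bind and silence E2F factors. RB1 (ENSG00000139687.13_2, chromosome 13, 48877887 to 49056122, plus strand) was at 9.20 FPKM with shNC and 13.2 FPKM with shKIAA1429, a log2 change of 0.48. This lay just under 0.5 and passed it with a pseudocount of 0.1 and after either rescaling, which also made the pseudocount of 1 weigh less. RBL1, whose promoter holds the paired E2F words, was at 1.45 and 2.52 FPKM, a change of 0.52. RBL2 (p130), the pocket protein of resting cells, was at 10.004 FPKM with shNC and 9.71 FPKM with shKIAA1429, a change of -0.04. RBL2 was the more abundant of RB1 and RBL2 with shNC and RB1 was with shKIAA1429, where RB1 made up 51.9% of the pocket protein FPKM compared with 44.5% in the control. In this list of 3, 1 was higher by more than 0.5 and 0 were lower (9.90% and 6.12% of all genes), with a median of 0.48.

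E2F1 (ENSG00000101412.12_2, chromosome 20, 32263489 to 32274210, minus strand), an activator of S phase genes, was at 2.98 FPKM with shNC and 5.68 FPKM with shKIAA1429. Its log2 change was 0.75, and 14 of the 535 genes in its bin had a higher one. The other activators went the other way, with E2F3 at 6.72 FPKM with shNC and 3.76 FPKM with shKIAA1429 (a change of -0.70), and E2F2 at 0.800 and 0.501 FPKM, under the minimum mean level. E2F7, a repressor of E2F target genes that is itself switched on late in G1, was at 4.32 FPKM with shNC and 17.6 FPKM with shKIAA1429, a log2 change of 1.81 that passed the limit of 1.5. It was the only gene past 1.5 among the 28 kept from the lists of cyclins, CDKs, inhibitors, pocket proteins and E2F factors. Its relative E2F8 was at 1.67 and 2.73 FPKM, a change of 0.48. The abundant E2F4, which works mainly with RBL2 in repression, was at 26.6 and 28.3 FPKM, and E2F5, E2F6, TFDP1 and TFDP2 had changes between -0.20 and 0.08. Of the 9 E2F and DP genes kept, 2 were higher and 1 was lower by more than 0.5 (9.90% and 6.12% of all genes), with a median of 0.08. As shares of the FPKM of E2F1 to E2F8, E2F7 made up 8.42% with shNC and 26.5% with shKIAA1429, E2F1 5.81% and 8.52%, and E2F3 13.1% and 5.64%.

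**Figure D3:**
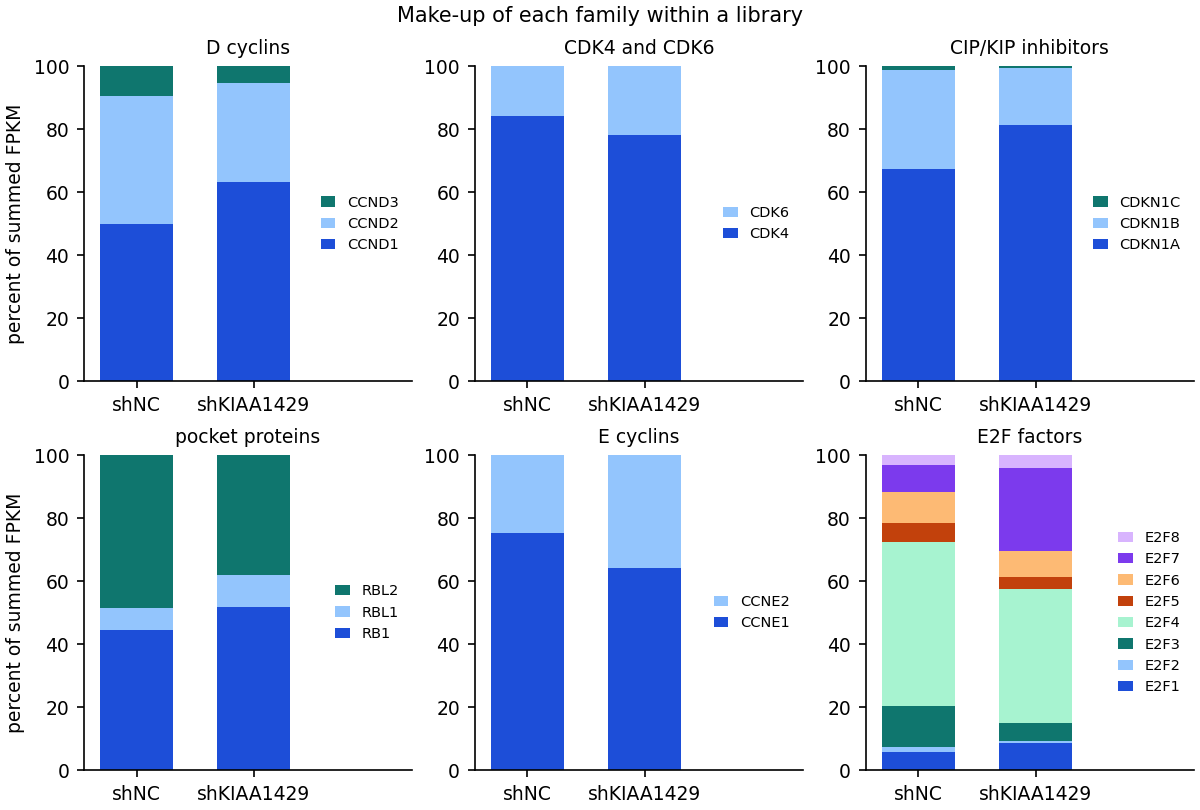
Stacked bars give each gene's percent of the summed FPKM of its family within 1 library, with shNC on the left and shKIAA1429 on the right of each panel, so differences in scaling between libraries do not enter. The shKIAA1429 bars hold more CCND1 (63.2% against 50.0%), more CDKN1A (81.3% against 67.3%) and more E2F7 (26.5% against 8.42%).

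Genes that E2F factors switch on at the G1 to S step were mostly higher with shKIAA1429. Of the 44 kept in this list, 40 were above 0 and 4 below, 15 were higher by more than 0.5 and 0 were lower by more than 0.5, and the median log2 change was 0.33. Over all genes 57.3% were above 0, 9.90% were higher and 6.12% lower by more than 0.5, and the median was 0.06. CLSPN, a replication checkpoint gene, was at 2.23 FPKM with shNC and 5.08 FPKM with shKIAA1429, a change of 0.91. CDC6, which loads the replicative helicase, was at 4.91 and 9.82 FPKM, a change of 0.87, and MCM6, a subunit of that helicase, was at 10.3 and 18.4 FPKM, a change of 0.79. The list holds CCNE2 and E2F1 from the 10 regulators, and without them its median was 0.29. Among the cyclin, CDK, inhibitor, pocket protein and E2F genes with a promoter window, the E2F word was in those of E2F1 and RBL1, which were higher, and of E2F3, E2F2 and TFDP1, which had changes of -0.70, -0.26 and -0.08. The 493 genes kept that held it had a median log2 change of 0.09 against 0.06 for all genes with a promoter window, and 8.92% of them were higher and 3.45% lower by more than 0.5, compared with 10.1% and 5.83%.

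The MuvB proteins bind pocket proteins to silence cell cycle genes and bind MYBL2 and FOXM1 to activate them later. In this list of 8 genes, 4 were higher and 1 was lower by more than 0.5 (9.90% and 6.12% of all genes), and the median was 0.45. LIN37 was at 0.979 FPKM with shNC and 2.30 FPKM with shKIAA1429, LIN54 at 1.27 and 2.56 FPKM, and MYBL2 at 9.99 and 15.4 FPKM, with changes of 0.74, 0.64 and 0.58. LIN37 overlaps another listed gene, AD000671.1, on the same strand, so its FPKM depends on how reads of that pair were divided. AD000671.1 went the other way, at 3.66 FPKM with shNC and 1.83 FPKM with shKIAA1429. Without genes overlapping on the same strand, the median of the list was 0.38. FOXM1, the activator of G2 and mitotic genes, was lower, at 33.2 FPKM with shNC and 12.5 FPKM with shKIAA1429, a change of -1.34, and 3 of the 535 genes in its bin were lower still.

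Among the enzymes that act on CDKs, CDC25B, a phosphatase that activates them, was at 9.92 FPKM with shNC and 15.9 FPKM with shKIAA1429 (0.63), and CDK7, the kinase that phosphorylates them, was at 26.7 and 18.3 FPKM (-0.52). The other 6 of this list of 8 lay within 0.5, and the median was 0.21. One of 8 in each direction compares with 9.90% of all genes higher and 6.12% lower. A further list held ubiquitin ligases of G1 cyclins and inhibitors with related genes of ubiquitin turnover. Of its 20 genes kept, 0 were past 0.5 in either direction, against 9.90% of all genes higher and 6.12% lower, and the median was 0.11. SKP2, which marks CDKN1B for destruction, was at 2.78 and 3.18 FPKM, and FBXW7, which marks cyclin E, was at 1.87 and 1.897 FPKM; both were chosen after their values were seen.

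Of the 26 genes kept that act upstream of D-type cyclins and the CIP/KIP inhibitors, 5 were higher and 4 were lower by more than 0.5 (9.90% and 6.12% of all genes), with a median of 0.13. MDM2, the ubiquitin ligase of p53, was at 15.7 FPKM with shNC and 35.99 FPKM with shKIAA1429, a change of 1.14. HES1, a Notch target, was at 7.78 and 14.4 FPKM (0.81), while ID2 was at 18.0 and 9.75 FPKM (-0.82) and FOS, a component of AP-1, at 2.97 and 1.37 FPKM (-0.74). Of the 20 genes of quiescence and growth arrest, 5 were higher and 1 was lower by more than 0.5, with a median of 0.36. With 6.12% of all genes lower, 1 of 20 is near the background, and 9.90% of all genes were higher. BTG2, an antiproliferative gene, was at 25.1 FPKM with shNC and 57.2 FPKM with shKIAA1429, a change of 1.16. SESN2 was at 23.5 and 44.6 FPKM and ZMAT3 at 8.69 and 15.5 FPKM, changes of 0.89 and 0.76. Other growth arrest genes of the list were nearly level, among them GADD45A (-0.01), CCNG1 (-0.10) and PLK2 (0.08), which were chosen after their values were seen. DYRK1A, a kinase that promotes the repressive MuvB complex, was at 2.88 and 1.06 FPKM, a change of -0.91.

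**Figure D4:**
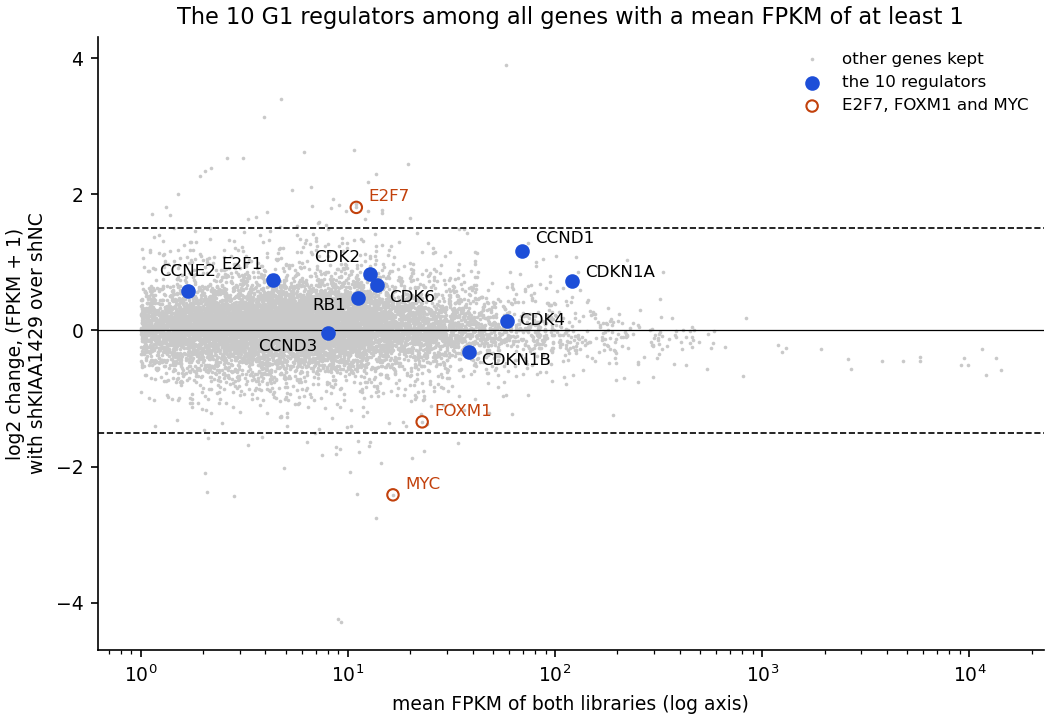
Log2 change against mean FPKM of both libraries (log axis) for all 10702 genes kept, with the 10 regulators as filled circles, E2F7, FOXM1 and MYC as open circles, and dashed lines at 1.5 in either direction. CCND1 at 1.17 lies at the upper edge of genes of its level, while the other 9 lie within the cloud.

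How often genes of the same bin differed as much was read from the bins of 535 genes. The bin of CCND1, CDK4 and CDKN1A reached from 48.7 to 14169 FPKM, so level was matched only loosely there. The central 95% of log2 changes reached from between -0.78 and -0.67 to between 0.749 and 0.998, depending on the bin. Of the 10 regulators, CCND1 lay outside this range and 9 lay inside it, E2F1 only just (0.746 against an upper bound of 0.749). These bounds describe genes within 1 pair of libraries and are not a replicate error.

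None of the 10 regulators overlaps a listed gene on its own strand (0 of 10), and 5 of them overlap one on the opposite strand. The libraries were made with a kit that keeps the strand, but whether the counting used it is not given in the sources used here, so reads of these pairs could have been divided. CCND1 overlaps ORAOV1, at 0.846 FPKM with shNC and 1.06 FPKM with shKIAA1429, CDK2 overlaps PMEL, at 0.797 and 0.485 FPKM, and RB1 overlaps LPAR6, at 0.490 and 0.958 FPKM. CDK4 overlaps TSPAN31, at 3.14 and 1.06 FPKM, and MARCH9, at 13.8 and 14.6 FPKM. CCNE2, itself at 1.16 and 2.22 FPKM, overlaps INTS8, at 4.92 and 4.48 FPKM, and NDUFAF6, at 1.58 and 1.56 FPKM, so its partners were no lower than it in the control library. In bulk RNA a higher level may come from more cells in the phase that expresses a gene or from more RNA per cell, and these cannot be told apart here.

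**Figure D5:**
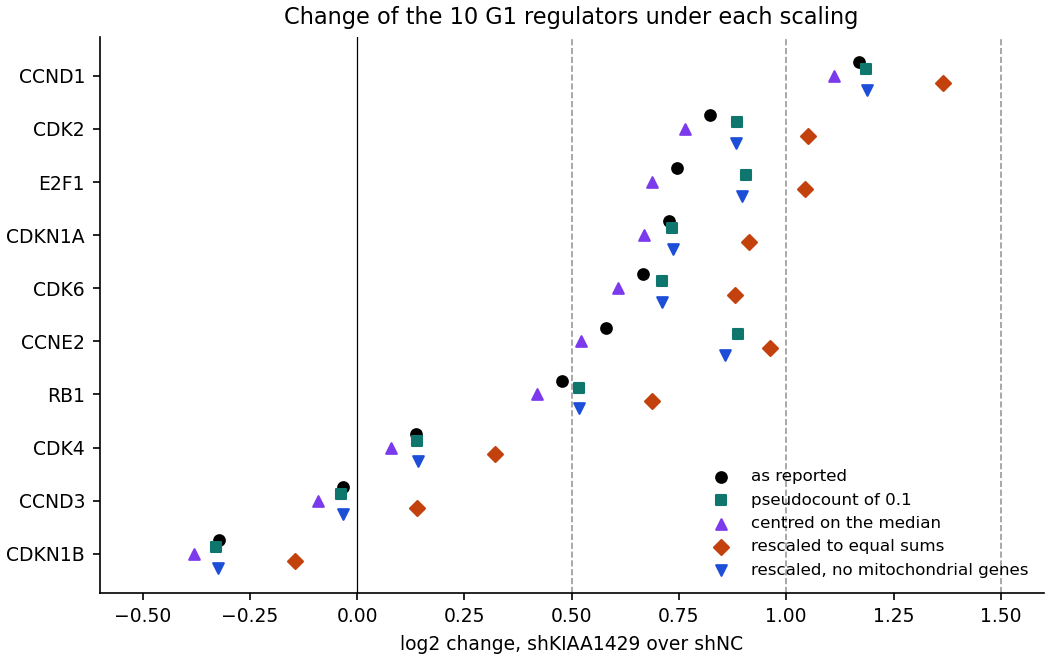
Log2 change of the 10 regulators as reported, with a pseudocount of 0.1, centred on the median of all genes, and rescaled to equal sums with or without mitochondrial genes, with dashed lines at 0.5, 1 and 1.5. Rescaling to equal sums moves every gene up, takes CDK2 and E2F1 past 1 (1.05 and 1.04) and turns CCND3 from -0.03 to 0.14, while CDKN1B stays below 0. Both rescalings raise the FPKM values with the pseudocount kept at 1, so they mix a change of scale with a smaller weight of the pseudocount.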

How the data were processed

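Poly(A) RNA of ACHN cells was sequenced in 1 library with shKIAA1429 and 1 with shNC. The authors deposited FPKM per gene for protein-coding genes above 0.5 FPKM in at least 1 library. The submitters' processing notes name cutadapt 1.9, HISAT2 2.0.4, StringTie 1.3.4d, DESeq2 and edgeR, without their roles. The genome build is not given in the sources used here, and the identifiers and coordinates match GENCODE on GRCh37. Read depth is unknown, so no counting interval was given, and with 1 library per group no test was run.

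From the deposited FPKM, log2 changes were computed with a pseudocount of 1 for symbols with a mean FPKM of at least 1. Where a symbol had several rows (7 symbols), the one of highest mean stood for it. The limit of 1.5 on the log2 scale is that of the study's methods, and limits of 1 and 0.5 were added for description. Level groups were 20 bins of mean FPKM. The 10 regulators and the 11 pathway lists, written by hand from textbook membership, were chosen with earlier results of these data known. All members of the first 5 lists are named, and of the other lists up to 4 genes with the largest change past 0.5. The promoter search (RefSeq, GRCh38.p14, 24 of the 31 symbols in the first 5 lists matched) was chosen after seeing the data. Steps were tested on simulated data. Python 3.11.15, NumPy 2.4.6, pandas 2.3.3 and matplotlib 3.10.9 were used.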

Additional observations from a re-analysis of the deposited data

How the results depend on the processing

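No paired analysis was possible because each group holds 1 library, and for the same reason no library could be left out and depth sets no interval. The regulators kept passed 1.5 in 0 cases in either direction under each of the 8 alternatives to the scaling, pseudocount, filter and overlap. All 10 were kept except with a minimum mean of 5 FPKM, which left out CCNE2 and E2F1. With a limit of 1, 1 of the 10 was higher, and with a limit of 0.5, 6 were. CCND1 stayed between 1.11 and 1.36, CDKN1A between 0.67 and 0.91 and CDKN1B between -0.38 and -0.15, and CCND3 was the regulator that changed sign, at 0.14 after rescaling to equal sums. Against 41 higher and 27 lower genes past 1.5 over all genes kept, a pseudocount of 0.1 gave 112 and 60, rescaling to equal sums gave 133 higher, the same without mitochondrial genes gave 107 and 57, and lowering the limit to 1 or 0.5 gave 172 and 96 or 1060 and 655. With a minimum mean of 5 FPKM 24 were higher, and without genes overlapping on the same strand 26 were, both because fewer genes were counted. Genes higher made up 60.3% of those past 1.5, and 80.6% after rescaling to equal sums (133 and 32). The medians of the lists, which are log2 changes, each moved by less than the log2 of 1.5 under the alternatives. Within that step several moved by much of their size. The CDK inhibitors lay between -0.29 and 0.00, the pocket proteins between 0.22 and 0.69, the E2F and DP factors between 0.004 and 0.27, and the genes upstream of D-type cyclins and CIP/KIP between -0.002 and 0.33. Alternatives for E2F7, E2F3, FOXM1, MDM2, BTG2, CCND2, RBL1 and the promoter words were added after seeing the data. Of these, E2F7 stayed between 1.75 and 2.14 and FOXM1 between -1.40 and -1.21. Both rescalings raised the FPKM values while the pseudocount stayed at 1, so they changed its weight along with the scale. The cause of the changes in counts with scaling and pseudocount was not tested.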
